A study of Mus musculus with 10 samples.

Results

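The coxsackie–adenovirus receptor (CAR), encoded by Cxadr, was followed together with 7 related adhesion molecules of the CTX/JAM branch of the immunoglobulin superfamily. These were Clmp, Igsf11, Esam, F11r, Jam2, Jam3 and Gpa33. The family was chosen by name, and each of the 8 genes was represented by the 1 transcript cluster on the array that names it and no other gene, out of 19938 genes with such a cluster. A transcript cluster groups the array probes that match the exons of one gene. RNA came from hearts of CAR KO embryos, which lack CAR in the whole animal, and of WT embryos, all obtained at E10.5 from matings of heterozygous CAR mice and left untreated. The knockout was that of the line B6.Cg-Cxadr tm1/Fgr. Each of the 5 CAR KO and 5 WT samples pooled 3 hearts and was hybridized to an Affymetrix Mouse Gene 1.0 ST array. The labels do not say whether samples of one genotype came from separate litters, so p-values measure the spread between these pools.

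CAR and its relatives are type I membrane proteins with a pair of extracellular Ig domains, by which they bind to the same or to a related protein on a neighboring cell, and most carry a cytoplasmic tail that binds PDZ scaffold proteins such as ZO-1. CAR is found on cardiomyocytes and epithelial cells and serves as the receptor of coxsackie B viruses and many adenoviruses. CLMP, the CAR-like membrane protein, is named for its resemblance to CAR, and BT-IgSF (Igsf11) for brain and testis. ESAM and the junctional adhesion molecules JAM-A (F11r), JAM-B (Jam2) and JAM-C (Jam3) are known mainly from endothelial and epithelial junctions. JAM-B and JAM-C bind to each other, and JAM-C is also a ligand of CAR. GPA33 is a surface antigen of the intestinal epithelium.

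The deposited values are log2 signals, with a median per array between 7.65 and 7.73. Cardiac muscle transcripts were among the brightest in both genotypes, with Actc1, the gene of cardiac α-actin, at 14.24 ± 0.02 in CAR KO and 14.27 ± 0.02 in WT samples (SD, n = 5 each). The level of background was set at 6.50, which 95% of 1205 clusters for olfactory and vomeronasal receptor genes did not exceed. All 8 family members had a mean above it over the 10 samples. CAR KO sample 5 and WT sample 5 had lower means of 18 cardiac muscle markers (12.39 and 12.50) than the other samples (12.68 to 12.78), and together with WT sample 2 they were the samples richest in transcripts of liver and yolk sac. Several results that turn on these samples are given with and without them. The number of arrays limits the precision.

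The family lies on 3 chromosomes (GRCm38.p6). Cxadr spans chr16:78301226-78359785, with Jam2 on the same chromosome at chr16:84774123-84826380 and Igsf11 at chr16:38892476-39027159. The start of Jam2 lies 6.47 Mb from that of Cxadr, and the start of Igsf11 39.41 Mb from it. Clmp (chr9:40682123-40785553), Esam (chr9:37528089-37538319) and Jam3 (chr9:27097384-27155421) share chromosome 9, where Esam and Clmp start 3.15 Mb apart. F11r (chr1:171437561-171464593) and Gpa33 (chr1:166130221-166166510) start 5.31 Mb apart on chromosome 1.

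Promoter windows of 300 bases (250 before and 50 after an annotated start, RefSeq, GRCm38.p6) were at hand for 3 members, and all are shown. On the arrays F11r was bright with an SD within genotypes of 0.13, Igsf11 varied most, and Gpa33 was the dimmest relative. Capitals mark the CCAAT box (CCAAT or ATTGG) and the GC box (GGGCGG or CCGCCC), searched on both strands together with TATAAA. The window of F11r (chr1:171437311-171437610, plus strand) held 4 CCAAT boxes and 1 GC box, with 19 CpG dinucleotides. That of Igsf11 (chr16:38902095-38902394, plus strand, inside the annotated span of the gene) held none of the motifs and 25 CpG, and that of Gpa33 (chr1:166129971-166130270, plus strand) held 1 CCAAT box and 4 CpG. Over all 32851 windows of this length 37.4% held a CCAAT box, 35.7% a GC box and 13.6% TATAAA, and the median was 7 CpG. These letter matches are a description of the sequence only.
F11r: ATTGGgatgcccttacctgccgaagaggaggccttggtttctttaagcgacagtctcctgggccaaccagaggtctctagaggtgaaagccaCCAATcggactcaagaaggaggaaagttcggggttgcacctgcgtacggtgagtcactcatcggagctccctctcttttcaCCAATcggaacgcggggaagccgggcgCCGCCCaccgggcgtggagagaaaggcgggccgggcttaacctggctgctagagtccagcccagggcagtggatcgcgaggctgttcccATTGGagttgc
Igsf11: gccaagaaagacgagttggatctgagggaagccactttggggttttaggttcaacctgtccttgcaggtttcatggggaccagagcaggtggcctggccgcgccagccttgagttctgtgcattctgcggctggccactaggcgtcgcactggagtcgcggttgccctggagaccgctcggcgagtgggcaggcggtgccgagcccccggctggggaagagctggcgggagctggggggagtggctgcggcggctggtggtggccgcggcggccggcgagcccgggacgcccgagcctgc
Gpa33: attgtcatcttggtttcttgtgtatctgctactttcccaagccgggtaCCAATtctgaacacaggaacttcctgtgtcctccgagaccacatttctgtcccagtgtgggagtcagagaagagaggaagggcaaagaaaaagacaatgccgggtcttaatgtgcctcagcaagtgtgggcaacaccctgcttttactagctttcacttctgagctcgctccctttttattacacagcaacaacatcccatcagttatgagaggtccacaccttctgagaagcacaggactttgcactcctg

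CAR transcripts were reduced in every CAR KO sample. The log2 signal of Cxadr was 6.69, 6.56, 6.37, 6.47 and 6.23 in CAR KO samples 1 to 5, against 8.28, 8.25, 8.46, 8.66 and 8.24 in WT samples 1 to 5. All CAR KO values lay below all WT values, and 3 of the 5 were below the background level. The log2 difference (CAR KO minus WT) was -1.91 with a standard error of 0.10 and a 95% confidence interval of -2.14 to -1.69 (adjusted p = 1.40e-05, limma with Benjamini-Hochberg adjustment over 28944 transcript clusters). The remaining signal was 26.5% of the WT signal, and once values below background were set to the background level, Cxadr was at least 3.55-fold lower. The sources used here do not give the exons that the knockout allele removes, so the position of the probes relative to the deletion is not known. Cxadr was the 1 family member called, where 0.00345% of all transcript clusters were called, and it was also the 1 member whose genotypes did not overlap, against 0.359% of clusters.

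**Figure D1:**
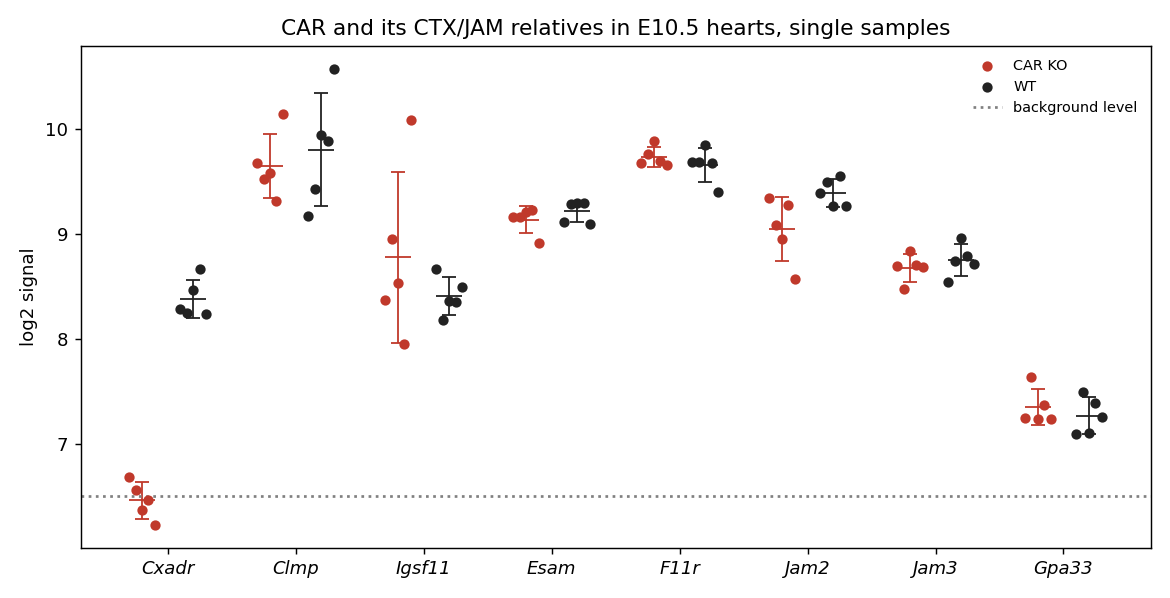
Log2 signal (y axis) of the 8 family members in single samples of CAR KO (red, left) and WT (black, right) E10.5 hearts, samples 1 to 5 from left to right in each group. Horizontal marks and error bars show mean and SD (n = 5), and the dotted line is the background level of 6.50. The genotypes separate for Cxadr and overlap for the 7 relatives, and Clmp and Igsf11 are the most scattered.

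The next question was whether transcripts of related molecules are raised when CAR is missing. Of the 7 relatives, 0 passed an adjusted p under 0.05 in limma, where each had an adjusted p that rounds to 1, and 0 passed after the same adjustment of the methods' t-test. Jam2, lower in CAR KO, was the 1 relative with an unadjusted p under 0.05 in limma. Such p-values were found for 2.4% of all clusters, and for 1.43% in the lower direction. None had an unadjusted p under 0.05 in the higher direction (0.978% of all clusters). Of the relatives 4 had a lower mean in CAR KO samples (50.1% of genes above background) and 3 a higher one, and their median log2 difference was -0.07, beside -0.0001 over all 14688 genes above background.
A p-value above the threshold does not show equal levels, and the confidence interval of each difference gives the rise the data still allow. For 6 of the 7 relatives its upper end was below a 1.5-fold rise (98.5% of genes above background) and for 4 of the 7 below a 1.2-fold rise (79.3%). The relative with the widest allowance was Igsf11, whose interval reached a 2.07-fold rise. The upper ends of the others were 1.28-fold for Clmp, 1.24-fold for Gpa33, 1.19-fold for F11r, 1.08-fold for Jam3, 1.06-fold for Esam and 0.96 times the WT level for Jam2. Of the 7 relatives 4 had an interval that stayed between a 1.5-fold fall and a 1.5-fold rise, against 97.1% of the genes above background. Within a 1.2-fold change there were 3 of these relatives, against 63.9%.

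**Figure D2:**
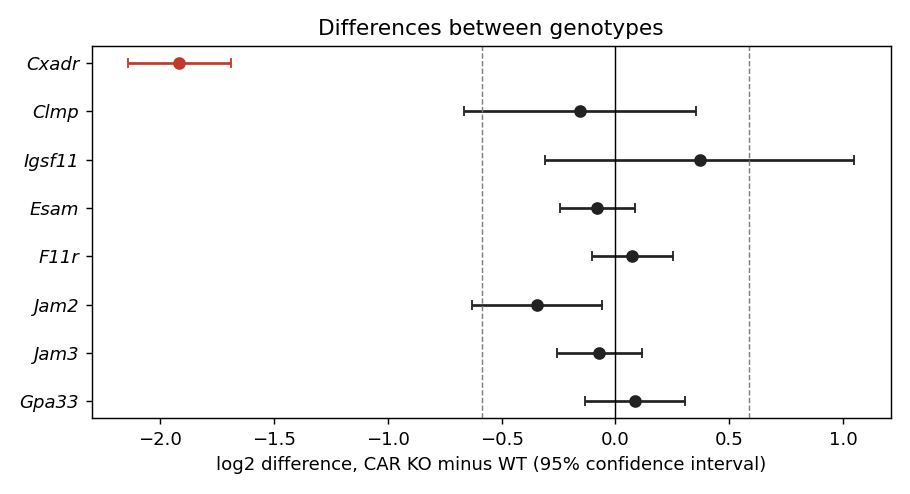
Log2 difference between CAR KO and WT (x axis, CAR KO minus WT) with its 95% confidence interval for the 8 members (y axis). Dashed lines mark a 1.5-fold change in either direction. The interval of Cxadr (red) lies between -2.14 and -1.69, that of Jam2 ends below 0, and those of Clmp and Igsf11 are the widest.

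Clmp, the CAR-like membrane protein known from smooth muscle of gut and ureter, was as variable within a genotype as between them. Its log2 signal was 9.67, 9.52, 9.58, 9.31 and 10.14 in CAR KO samples 1 to 5, against 9.17, 9.43, 9.94, 9.88 and 10.57 in WT samples 1 to 5. In both genotypes sample 5 was the highest, and the CAR KO values lay inside the WT range. The log2 difference was -0.15 (95% confidence interval -0.66 to 0.36, unadjusted p = 0.522 from limma). It was 0.04 without WT sample 5 and -0.28 without CAR KO sample 5. The SD within genotypes was 0.44, larger than that of 98.3% of the genes above background, whose median was 0.13.

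Igsf11, which encodes BT-IgSF, a homophilic adhesion molecule known from brain and testis, had a higher mean in CAR KO samples through sample 5. The log2 signal was 8.37, 8.95, 8.53, 7.95 and 10.08 in CAR KO samples 1 to 5, against 8.66, 8.18, 8.36, 8.35 and 8.49 in WT samples 1 to 5. The lowest and the 2 highest of the 10 values were CAR KO samples, and the WT values stayed within 0.48 of each other. The log2 difference was 0.37 (95% confidence interval -0.31 to 1.05, unadjusted p = 0.258 from limma). Without CAR KO sample 5 it was 0.04. When the 3 samples with most liver and yolk sac transcripts were left out, a choice made after the data were seen, it was -0.01 with an interval of -0.45 to 0.44, which allows a 1.36-fold rise. Within genotypes the SD was 0.59, above that of 99.2% of the genes above background.

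Jam2, the gene of JAM-B, was the relative nearest to a change, and it was lower in CAR KO hearts. Its log2 signal was 9.34, 9.08, 8.95, 9.27 and 8.57 in CAR KO samples 1 to 5, against 9.39, 9.49, 9.26, 9.55 and 9.26 in WT samples 1 to 5. The highest CAR KO samples, 1 and 4, reached the lower part of the WT range, and the other CAR KO samples lay below it. The log2 difference was -0.35 with a standard error of 0.13, or 78.7% of the WT signal (95% confidence interval 64.6% to 95.9%). Over all clusters this did not pass (unadjusted p = 0.0218, adjusted p rounding to 1 from limma). An exact permutation test over the samples gave a two-sided p of 0.0476, not adjusted for the 7 relatives. For the other relatives the same permutation test gave p-values from 0.341 (Esam) to 0.595 (Clmp). With samples left out in turn the difference ran from -0.42 without CAR KO sample 1 to -0.23 without CAR KO sample 5, and the unadjusted p from 0.00774 without CAR KO sample 1 to 0.0537 without WT sample 4. Without the 3 samples richest in liver and yolk sac transcripts it was -0.24 (unadjusted p = 0.0569 from limma). In bulk hearts a smaller number of cells of one type and less RNA per cell cannot be told apart.

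Markers of 2 cell types, out of 10 cell type lists, were set beside Jam2. The lists were chosen with earlier results of these data known, so their counts are a description only. Of 19 endothelial markers 12 were lower and 7 higher in CAR KO samples, 0 passed the adjusted threshold, and 1 had an unadjusted p under 0.05, in the higher direction (0.978% of all clusters). Their summed linear signal ranged from 2.71e+04 to 3.81e+04 in CAR KO and from 3.25e+04 to 3.86e+04 in WT samples. The mean of their log2 signals was lowest in CAR KO sample 5. With this mean as a covariate, an alternative chosen after the data were seen, the log2 difference of Jam2 was -0.29 (unadjusted p = 0.00205, adjusted p = 0.852 from limma). Of 11 markers of epicardium and mesothelium all were lower in CAR KO samples (50.1% of genes above background), 5 of them at an unadjusted p under 0.05 (1.43% of all clusters in that direction) and 0 after adjustment. Their summed linear signal ranged from 1.04e+04 to 1.48e+04 in CAR KO and from 1.32e+04 to 1.56e+04 in WT samples. Muc16 was not above background over the 10 samples. Over the 10 samples the deviations of Jam2 from its genotype means correlated with those of the epicardial mean at 0.10 (Pearson's r). Without CAR KO samples 2 and 4 this value was 0.37. The part of the epicardial markers in the result for Jam2 was not tested.

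Because Jam2 lies near the targeted locus, the other genes of that interval were examined. Within 10 Mb of the start of Cxadr, 37 other genes could be measured on their own cluster, 25 with a mean above background. Of these 37, 0 passed the adjusted threshold in limma, and Jam2 was the 1 gene with an unadjusted p under 0.05, a share close to the 2.4% of all clusters. The log2 differences of the others ran from -0.18 for Adamts5, which encodes a secreted protease of matrix proteoglycans, to 0.14 for Samsn1. The microRNA gene Mir125b-2, next by its p after Jam2 and Adamts5, was not above background and differed by 0.11. The median over the interval was -0.013. The nearest neighbors of Cxadr were D16Ertd472e, at -0.11 (95% confidence interval -0.43 to 0.21), and Chodl and Tmprss15, which were not above background and differed by 0.02 and 0.08. Gabpa and Atp5j, which start just beyond Jam2, differed by -0.02 and -0.06, and Mrpl39 on its other side by 0.10.

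**Figure D3:**
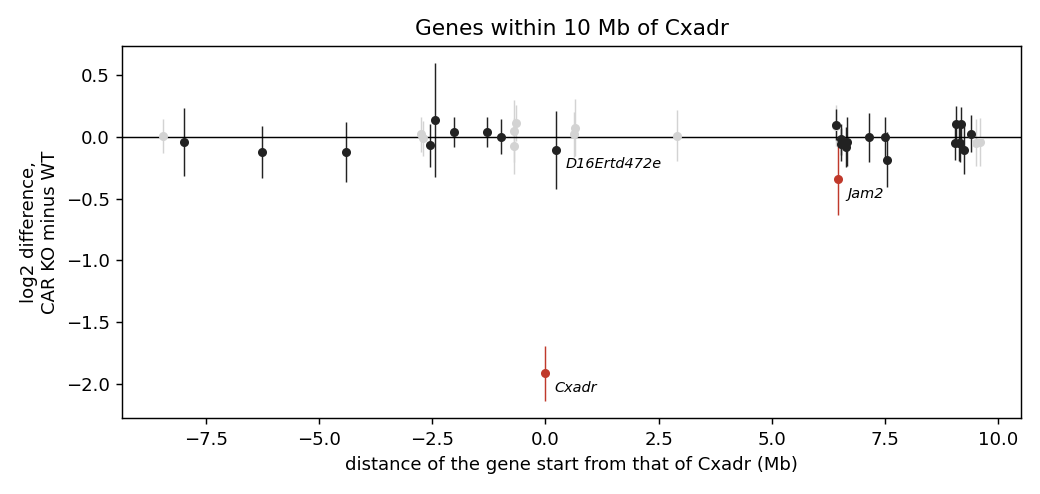
Log2 difference between CAR KO and WT (y axis, CAR KO minus WT, with 95% confidence interval) of the genes of chromosome 16 by the distance of their start from that of Cxadr (x axis, Mb). Cxadr and Jam2 are red, other genes above background black and genes not above background light grey. Apart from Cxadr and Jam2 the differences lie between -0.18 and 0.14.

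Esam, a component of endothelial junctions and platelets, had similar signals in both genotypes. They were 9.16, 9.16, 9.21, 9.23 and 8.91 in CAR KO samples 1 to 5, against 9.11, 9.28, 9.29, 9.29 and 9.09 in WT samples 1 to 5. CAR KO sample 5 stood below the other 9 samples, and the remaining CAR KO values lay inside the WT range. The log2 difference was -0.08 (95% confidence interval -0.24 to 0.08, unadjusted p = 0.313 from limma), and -0.02 without CAR KO sample 5.

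F11r, which encodes JAM-A, an adhesion molecule of epithelial tight junctions, endothelium and platelets, was the steadiest bright member in CAR KO hearts. The signals were 9.67, 9.76, 9.88, 9.69 and 9.65 in CAR KO samples 1 to 5, against 9.68, 9.68, 9.84, 9.67 and 9.40 in WT samples 1 to 5. WT sample 5 was the lowest and CAR KO sample 3 the highest. For F11r the log2 difference was 0.07 (95% confidence interval -0.10 to 0.25, unadjusted p = 0.373 from limma), and 0.01 without WT sample 5.

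Jam3, the gene of JAM-C and thus of a partner of CAR as well as of JAM-B, also overlapped between the genotypes. Its signals were 8.69, 8.47, 8.84, 8.70 and 8.68 in CAR KO samples 1 to 5, against 8.54, 8.74, 8.96, 8.79 and 8.71 in WT samples 1 to 5. In both genotypes sample 3 was the highest. For Jam3 the log2 difference was -0.07 (95% confidence interval -0.26 to 0.12, unadjusted p = 0.425 from limma).

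Gpa33 was the dimmest of the relatives. Its signals were 7.25, 7.64, 7.24, 7.37 and 7.24 in CAR KO samples 1 to 5, against 7.09, 7.49, 7.10, 7.39 and 7.26 in WT samples 1 to 5. Sample 2 was the highest of both genotypes. For Gpa33 the log2 difference was 0.09 (95% confidence interval -0.14 to 0.31, unadjusted p = 0.415 from limma), and its mean fell below a stricter background level, the 99th percentile of those receptor genes (7.32).

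By mean signal over WT samples the order was Clmp, F11r, Jam2, Esam, Jam3, Igsf11, Cxadr and Gpa33. In CAR KO samples it was F11r, Clmp, Esam, Jam2, Igsf11, Jam3, Gpa33 and Cxadr. Transcript clusters have their own probes, so this order is one of signals and not of mRNA amounts, and it was not tested. In WT samples the single values of neighbors in this order overlapped, as for Clmp and F11r (9.80 ± 0.54 and 9.65 ± 0.16, SD, n = 5 each), except for Esam with Jam3 and for Cxadr with Gpa33.

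Covariation was examined over the 10 samples for the 21 pairs of the 7 relatives. The permutations treated the 10 samples as independent, and a pairing by sample number was not excluded. Cxadr separates the genotypes, and 5 samples within a genotype are too few for a correlation, so it was left out of the pairs. Its deviations from the genotype means are used further on as a description only. None of the pairs passed an adjusted p under 0.05, and for Pearson's r 3 had an unadjusted p under 0.05 (permutation test, two-sided). For Spearman's rho 2 did. Igsf11 and Esam had Pearson's r = -0.85 (permutation p = 0.00731, adjusted p = 0.128) and Spearman's rho = -0.77 (permutation p = 0.0118, adjusted p = 0.244). The value of r was -0.54 without CAR KO samples 5 and 2. With deviations from the genotype means in place of the signals r was -0.83 and this pair passed (permutation test, adjusted p = 0.0409). That permutation did not allow for the means removed beforehand, so its p may be too small.
Igsf11 and Jam2 also correlated negatively (r = -0.82, permutation p = 0.0122, adjusted p = 0.128, rho = -0.64, permutation p = 0.0547, adjusted p = 0.383), but r was -0.22 without CAR KO samples 5 and 2. Esam and Jam2 correlated positively (r = 0.73, permutation p = 0.0238, adjusted p = 0.167, rho = 0.43, permutation p = 0.218, adjusted p = 0.655), and r was 0.35 without CAR KO sample 5 and WT sample 3. The relations of Jam2 with Igsf11 and with Esam therefore rest on those samples. Esam and Jam3 had rho = 0.72 (permutation p = 0.0233, adjusted p = 0.244) and r = 0.46 (permutation p = 0.184, adjusted p = 0.692). Jam2 and Jam3, the genes of a receptor and its ligand, had r = 0.08 (permutation p = 0.827, adjusted p = 0.901) and rho = 0.10 (permutation p = 0.786, adjusted p = 0.852).

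The deviations of the members from their genotype means were then set against the means of 10 lists of cell type markers, which gave 80 correlations over 10 samples. They are given as a description, since lists and members come from the same arrays. Clmp followed the list of cushion mesenchyme (r = 0.90, and 0.85 without CAR KO sample 5 and WT sample 1), a list of 13 genes with Postn, Col1a1 and Pdgfra. It also followed the list of foregut epithelium (0.88, and 0.66 without both samples 5). With the macrophage list Clmp correlated at 0.84 (0.38 without both samples 5) and with the cardiac muscle list at -0.75 (0.05). Jam2 followed the endothelial list (0.88, and 0.65 without CAR KO samples 5 and 4), whereas Esam followed it at 0.76, and 0.37 without these samples. Igsf11 ran against the endothelial list at -0.83, and at -0.32 without them. Igsf11 also correlated with the cardiac muscle list at -0.76 (-0.36 without both samples 5) and with the macrophage list at 0.68 (0.42). With the list of megakaryocytes and platelets Igsf11 had 0.76 (0.27 without CAR KO samples 5 and 3) and Esam -0.71 (-0.24). Esam correlated with the macrophage list at -0.77 (0.02 without both samples 5). A high value was thus not particular to 1 list. The correlations of F11r, Cxadr and Esam with the cardiac muscle list were 0.57, 0.66 and 0.84, and without both samples 5 they were -0.45, 0.44 and 0.10. Jam2 correlated with that list at 0.80 (0.46 without both samples 5), with the foregut list at -0.78 (-0.65) and with the macrophage list at -0.72 (-0.31). For Jam3 all 10 values lay between -0.19 and 0.14, but without the 2 samples farthest out in each list its value was 0.77 with the epicardial list (without CAR KO samples 2 and 4) and -0.48 with the erythroid list (without WT sample 3 and CAR KO sample 2).

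**Figure D4:**
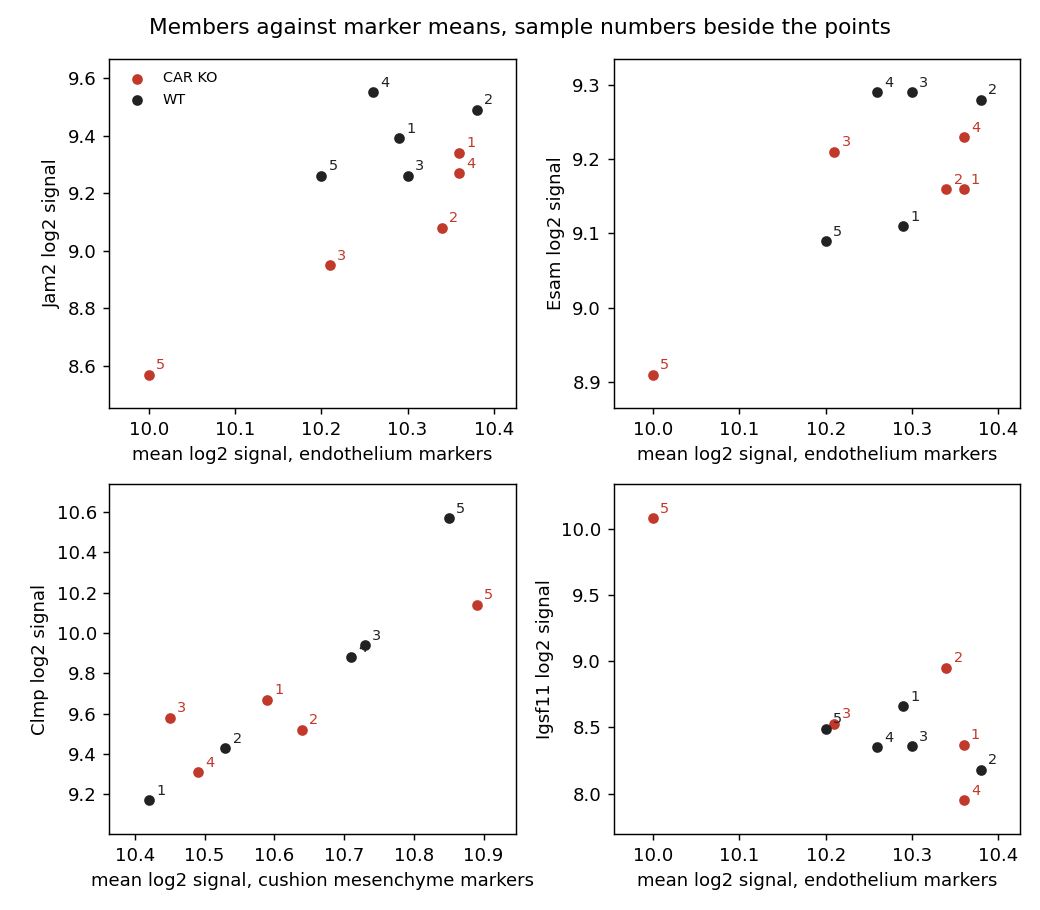
Log2 signal of 4 members (y axes) against the mean log2 signal of a list of markers (x axes) in CAR KO (red) and WT (black) samples, with the sample number beside each point. CAR KO sample 5 has the lowest endothelial mean, the lowest Jam2 and Esam and the highest Igsf11, and Clmp is highest in both samples 5.

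**Figure D5:**
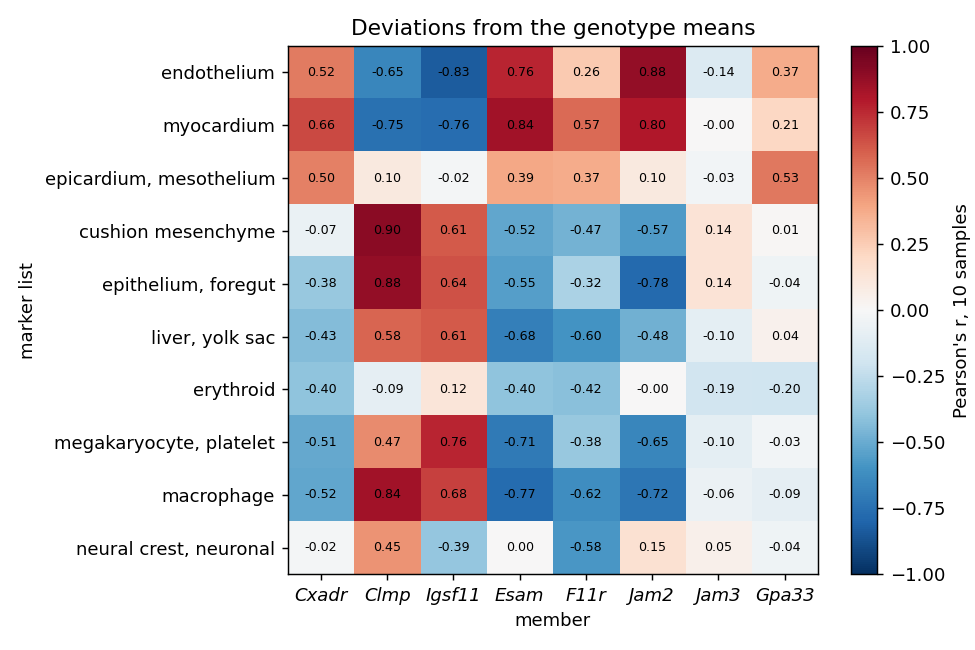
Pearson's r between the deviations of each member (columns) and of each marker list mean (rows) from the genotype means over the 10 samples, from -1 (blue) to 1 (red). The highest value is 0.90 for Clmp with the cushion mesenchyme list, and the lowest is -0.83 for Igsf11 with the endothelial list.

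Among the 14680 other genes above background, those with the most similar deviations were named for each member, again as a description over 10 samples. They are the highest of 14680 values per member, so part of their height comes from this choice. How many genes would exceed 0.9 by chance was not tested. For Clmp they were Rbpj, the DNA-binding partner of Notch (r = 0.99), Meis2 (0.980), Hs3st3a1 (0.976), Ptges and Pdgfra, a growth factor receptor of mesenchyme (0.974), and 129 genes exceeded 0.9. Without the 2 samples in which Clmp deviated most these 5 values were 0.93 to 0.98. For Cxadr they were Nt5e, the ectonucleotidase CD73 (0.963), Tent5d (0.936), Myh10, a nonmuscle myosin (0.914), 4930402H24Rik (0.914) and Lrrk2 (0.906), and 6 genes exceeded 0.9. Without the 2 samples in which Cxadr deviated most these 5 values were 0.85 to 0.93. The deviations of Cxadr in CAR KO samples are those of a signal near the background level, below it in 3 of the 5.
The genes most like Jam2 were Adam19, a metalloprotease (0.980), Pck2 (0.980), Isca1 (0.978), Akt1 (0.976) and Ppm1h (0.973). Without the 2 samples in which Jam2 deviated most their values were 0.90 to 0.96. Those most like Esam were Babam2 (0.979), Rab14, Ndufv2 (0.974), Mcee (0.974) and Golt1b (0.970), and without the 2 samples farthest out for Esam 0.93 to 0.97. Those most like Igsf11 were Stxbp5 (0.976), Atxn7l1 (0.971), P2rx1 (0.958), R3hdm1 (0.956) and Iars (0.948), and without the 2 samples in which Igsf11 deviated most their values were 0.54 to 0.84. For F11r the first were Manf (0.970), Trim6 (0.970) and Add3 (0.966), and for Jam3 Pank2 (0.964), Osgepl1 (0.962) and Golga7 (0.961). For Gpa33 they were Gdap1l1 (0.946), BC106179 (0.936) and C1qtnf2 (0.930). Without the 2 samples in which each member deviated most, the values were 0.90 to 0.94 for F11r. They were 0.92 to 0.98 for Jam3 and 0.78 to 0.82 for Gpa33.

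No gene of 4 lists of molecules around the family was called. Of 6 further CTX/JAM genes, 4 of them above background, 0 passed the adjusted threshold in limma and 0 had an unadjusted p under 0.05, with a median log2 difference of 0.043, beside 0.0074 over all 19938 genes. Jaml, which encodes the leukocyte ligand of CAR, was not above background and differed by 0.11 (95% confidence interval -0.14 to 0.37), and Vsig8 differed by 0.08 (-0.12 to 0.28). Of 40 other adhesion molecules of the immunoglobulin superfamily 0 were called and 1 had an unadjusted p under 0.05, a share close to the 2.4% of all clusters. This was Nectin1, a binding partner of other nectins at adherens junctions, at 0.13 (95% confidence interval 0.01 to 0.26). The smallest p after it belonged to Negr1, at -0.12.
Of 11 scaffold proteins with PDZ domains that bind CAR or its relatives 0 were called and 0 had an unadjusted p under 0.05, with a median of 0.03. Lnx2, a ubiquitin ligase that binds CAR, had the smallest p with a log2 difference of -0.25 (95% confidence interval -0.53 to 0.03), followed by Dlg1 at 0.09. Of 14 ligands and intracellular partners of the JAMs 0 were called and 0 had an unadjusted p under 0.05, with a median of 0.011. Rapgef2, an exchange factor that acts downstream of JAM-A, differed by -0.10 and Itgb3, the β3 integrin, by 0.12. Over the whole array the methods' t-test called 1 cluster after adjustment, which was Cxadr.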

How the data were processed

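The authors deposited log2 signals in 1 table of 35556 rows by 10 samples. MAS5 is named in the submitters' notes, and the sources used here do not give the background correction, summarization or genome build. Leaving out 6612 control rows left 28944 transcript clusters, of which 21789 name 1 gene, 1621 several and 5534 are unnamed here. Names come from the platform annotation, positions and promoters from RefSeq (GRCm38.p6). For a gene with several clusters the brightest was used, and each family member had 1. Differences between genotypes were fitted with lmFit and eBayes (limma 3.58.1, R 4.3.3). P-values were adjusted by Benjamini-Hochberg across every cluster, at 0.05. Single values were tested by exact permutation, and correlations with 100000 permutations. The fit was tested on simulated data. The family and the gene lists were chosen with earlier results of these data known. All 8 members are named. The other names follow a rule: the 5 genes most similar to each member (the first 3 are given for F11r, Jam3 and Gpa33), the 2 with the smallest p of each family-related list, the 3 nearest to Cxadr, the 3 with the smallest p in its interval and the 2 brightest of each marker list, of which some are given. Samsn1, Gabpa, Atp5j and Mrpl39 were chosen after their values were seen, and Postn, Col1a1 and Muc16 are named without values. No samples held identical values. Figures were drawn with matplotlib 3.10.9.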

Additional observations from a re-analysis of the deposited data

Results flagged for a closer look

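Of 102 sets of 5 samples examined, 8 held an extreme sample set apart from the rest, and about 1 in 20, or 5.1, would be found by chance. Among the family this was Esam, with CAR KO sample 5 at 8.91 and the other CAR KO samples at 9.16 to 9.23 (a gap of 0.791 of the range). The cardiac muscle mean of that sample was also low, at 12.39 beside 12.68 to 12.78 in the other CAR KO samples (0.739), and in WT sample 5 it was 12.50 beside 12.71 to 12.76 in the other WT samples (0.805). WT sample 5 stood above the other WT samples for the macrophage mean (0.736), for C1qb, a complement gene of macrophages (0.782), and for the neural crest and neuronal mean (0.763). WT sample 3 stood below the others for the erythroid mean (0.734) and for Hba-x, an embryonic globin (0.845).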

How the results depend on the processing

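Each alternative that was run called Cxadr (-1.97 to -1.84 when single samples were omitted), and none called a relative. Array weights called 2 clusters. With samples left out in turn the log2 differences ran from -0.31 to 0.04 for Clmp (reversed without WT sample 5), 0.04 to 0.58 for Igsf11, -0.11 to -0.02 for Esam, 0.01 to 0.12 for F11r, -0.42 to -0.23 for Jam2, -0.12 to -0.02 for Jam3 and 0.01 to 0.14 for Gpa33. Without the 3 samples richest in liver transcripts, chosen after the data were seen, Igsf11 was at -0.01. Of the 8 members 7 had an interval within 1.5-fold with array weights and also without these 3 samples, against 4 as reported. There were 696 clusters at an unadjusted p under 0.05, compared with 1811 for array weights, 1214 without these samples, 1558 with the endothelial mean as a covariate and 411 without WT sample 4. Of the pairs of relatives 1 passed with deviations from the genotype means (Igsf11 and Esam), against 0 as reported. That permutation did not allow for the means removed beforehand. With these deviations r was 0.04 for F11r with Jam2 and -0.13 for Jam2 with Jam3. With quantile normalization r was 0.02 for Clmp with Gpa33, 0.06 for Igsf11 with Gpa33 and 0.08 for F11r with Gpa33. All of these had the opposite sign to that reported. The cause of these shifts was not tested. A replicate block on the sample number called 1 cluster, the same count as without it, and gave 1304 clusters at an unadjusted p under 0.05 and Jam2 at -0.35 (unadjusted p = 0.00356, limma). Samples with the same number had deviations that correlated at 0.20, 0.47, 0.33, 0.07 and 0.56. The labels name no shared litter or day, and 1 of these values missed the 0.1 asked of every pair, so the fit without the block was kept. A pairing was not excluded. Among CAR KO samples 4 of 5, and among WT samples 3 of 5, were closest to the sample of their own number, which is only a hint. Members above background numbered 8, or 7 at the 99th percentile. Another transcript cluster per member was not run, since each had 1.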
